A study of Arabidopsis thaliana with 8 samples.

Results

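The 8 ATH1 arrays of Arabidopsis thaliana rosette leaves were compared by the state of the FLU gene, over both transgene backgrounds at once. All 8 of the 8 arrays of the series entered: 4 with the flu mutation and 4 with functional FLU, as their titles give them. The mutant side held 2 arrays of flu, a T-DNA insertion line of FLU without a transgene, and 2 of flu over-tAPX 14-2, which joins that insertion to an overexpressor of the thylakoid ascorbate peroxidase. The other side held 2 arrays of WT Col and 2 of over-tAPX 14-2, the overexpressor with functional FLU. The transgene was thus present on 2 arrays of each side and was a covariate of the model. These lines are called flu, flu over-tAPX, WT and over-tAPX from here on. Each overexpressor was represented by a single transgenic line, 14-2, so a property of that line and of the transgene cannot be told apart.

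All plants grew for 3 weeks in continuous light, then spent 8 h in the dark, and their leaves were taken 2 h after the light came back. No array came from plants kept in the light throughout, so the flu mutation and the shift to the light after darkness were always combined on the mutant side. The experiment was done 6 times with at least 10 plants a line, and each array read RNA pooled from 3 of the 6 experiments. The spread between arrays is therefore one between pools. Free-text descriptions of some samples disagree with titles and protocols: they name the Landsberg accession or a shorter time of renewed light. The lines and times given here follow the titles and the protocols.

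FLU is a chloroplast protein that holds back the synthesis of 5-aminolevulinic acid, the first committed precursor of chlorophyll and haem. Without it, protochlorophyllide collects in the dark, and when the light returns this pigment passes energy to oxygen and makes singlet oxygen at the thylakoid membrane. In Arabidopsis this is known to change the expression of many nuclear genes within hours, and it can stop growth or kill cells. Thylakoid ascorbate peroxidase reduces hydrogen peroxide to water at the same membrane with ascorbate as the electron donor.

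The values were MAS5 signals, a brightness per probe set on a linear scale, where a probe set is the group of short oligonucleotides that reads a transcript. Changes are given as log2(signal + 16) of the mutant side minus the functional side, with the standard error (SE) of the model. This scale understates changes of dim probe sets. A probe set was called when its limma p-value, adjusted by the Benjamini-Hochberg procedure over 14947 tested probe sets, was under 0.05. Arrays of the same line correlated over probe sets with r between 0.938 and 0.981, arrays of the same FLU state in different lines with 0.935 to 0.972, and arrays of opposite FLU state with 0.778 to 0.857. TAPX, the gene of the transgene, read 1656 and 1729 on flu arrays, 22703 and 23222 on flu over-tAPX, 2558 and 3115 on WT, and 22959.7 and 22043 on over-tAPX. All 4 arrays of the overexpressing lines lay above all 4 of the others in this gene. The pooled flu effect on TAPX was -0.35 ± 0.16 with an adjusted p of 0.089 in limma. Within the pair without the transgene the change was -0.73 ± 0.15, against 0.03 ± 0.15 within the overexpressors. FLU itself was not analysed here.

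Of the marker genes listed for leaf cell types, few had a named and tested probe set. The mesophyll was represented by 2 of 9, RCA (Rubisco activase) and LHCB4.2 (a light-harvesting protein). RCA averaged 28231 ± 2774 with the flu mutation and 30102 ± 1268 with functional FLU (SD, n = 4 each), and it did not pass the test. LHCB4.2 averaged 13429 ± 1581 with the flu mutation and 23965.5 ± 1124 with functional FLU (SD, n = 4 each) and fell, so the mesophyll markers differed. Guard cells were represented by 1 of 7 markers: FMA, which codes for the factor FAMA, averaged 285 ± 65.1 with the flu mutation and 259.7 ± 4.04 with functional FLU (SD, n = 4 each). Phloem was represented by 1 of 5: SWEET11, a sucrose exporter, averaged 3879 ± 527 with the flu mutation and 5368 ± 423 with functional FLU (SD, n = 4 each) and fell. Among 5 root markers, PYK10 was dim, at 90.8 ± 15.7 with the flu mutation and 49.6 ± 46.1 with functional FLU (SD, n = 4 each), and another 2 were under the filter, as was CLV3 of the shoot meristem. Xylem, epidermis, trichome and flower markers were not analysed here. In whole leaves, fewer cells of a type and less RNA per cell cannot be told apart.

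The pooled effect reached a large share of the measured transcripts, and most of the changes were modest. Of 14947 probe sets tested, 6610 were called, which is 44.2%. Higher with the flu mutation were 2561 (17.1%), and lower were 4049 (27.1%). Of the called probe sets, 4097 changed less than 2-fold: 935 of the 2561 higher ones (36.5%) and 3162 of the 4049 lower ones (78.1%). The direction of the split thus turned with size. Between 1.5- and 2-fold there were 611 higher and 1897 lower calls, and under 1.5-fold 324 higher and 1265 lower. At 4-fold or more there were 732 higher and 31 lower, and at 8-fold or more 306 higher and 3 lower. The median change was 1.29 among the higher calls and -0.72 among the lower ones, while the median over all tested probe sets was -0.20.

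**Figure D1:**
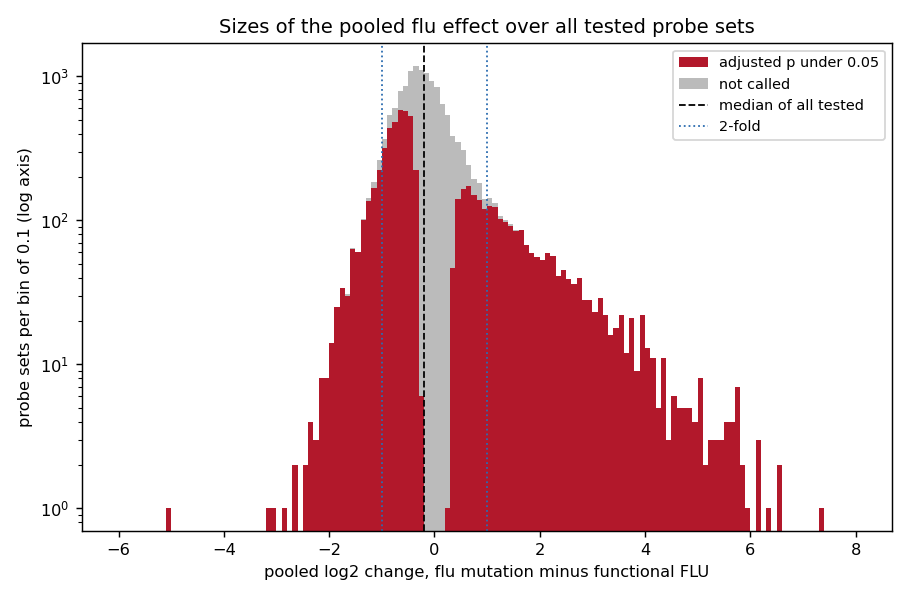
Number of probe sets (log axis) by pooled log2 change, flu mutation minus functional FLU, in bins of 0.1; red, called; grey, not called. Calls within the dotted 2-fold lines are mostly on the lower side (3162 against 935), while the tail beyond 4-fold is almost all on the higher side (732 against 31).

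Array by array, the sides parted in the same way. All 4 flu-mutant arrays lay above all 4 others for 2498 probe sets (16.7%) and below them for 3887 (26%). Of the higher calls 92.4% had such separate arrays, and of the lower calls 87.4%. The smallest change that passed was 0.28 in size on the log2 scale, against a median SE of 0.18 over all tested probe sets. Bright probe sets were measured more tightly: with the tested probe sets in 4 equal bins of brightness, the median SE was 0.14 in the brightest bin and 0.31 in the dimmest. Of the brightest bin 59.0% were called, and of the dimmest 25.7%.

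The scaling of the arrays bears on this split. MAS5 sets each array to a common mean, so these changes are relative to the rest of the array. The 27 poly-A spike-in control probe sets, which read RNA added during labelling, averaged 8.13 and 8.21 (log2) on the flu arrays, 8.87 and 8.57 on flu over-tAPX, 8.20 and 8.32 on WT, and 7.97 and 8.03 on over-tAPX. They were thus highest on the 2 flu over-tAPX arrays. With each array scaled on them, the median change of all tested probe sets was -0.49, 7255 were called, and 23.1% of the calls were higher, against 38.7% as deposited. Centring each array on its own median gave 6551 calls, 40.1% of them higher, and kept 96.5% of the lower and 99.8% of the higher calls.

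The 12 named genes with the largest rises included genes for sugar-transferring enzymes, calcium-binding proteins, a wall enzyme and a transcription factor. CCR2 codes for a cinnamoyl-CoA reductase of the lignin pathway. Its signal was 1588 and 1745 on flu arrays, 2284 and 2118 on flu over-tAPX, 19.4 and 14.9 on WT, and 38.1 and 6.73 on over-tAPX. Every mutant array was far above every array with functional FLU, where the probe set was dim. The change was 5.82 ± 0.24 (SE; limma adjusted p = 2.02e-08), and the 16 added to each signal sets part of the size, and of the order among genes, at such dim levels. CML38, a calmodulin-like calcium-binding protein, read 3067 and 2334 on flu arrays, 4328 and 2552 on flu over-tAPX, 51.1 and 46.4 on WT, and 60.3 and 24.8 on over-tAPX, a change of 5.64 ± 0.24. STZ, a zinc finger transcription factor induced by several stresses, was brighter on both sides. It read 4779 and 5264 on flu arrays, 7354 and 6273 on flu over-tAPX, 179.6 and 149 on WT, and 171 and 160.3 on over-tAPX, and the 4 arrays of a side stayed close to each other. The change of STZ was 5.02 ± 0.14 (SE; limma adjusted p = 2.60e-09).

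Others of this size covered several functions. UGT73B4 and UGT73B5, glycosyltransferases that join sugars to small molecules, rose by 5.45 ± 0.22 and 4.85 ± 0.17. UGT73B4 averaged 1144 ± 321 with the flu mutation and 9.90 ± 2.68 with functional FLU (SD, n = 4 each). The glutathione transferase gene GSTU25 rose by 5.33 ± 0.36, but its functional-FLU arrays were uneven, between 8.13 and 55.3. CML37 rose by 5.13 ± 0.23, and B120, a lectin-type receptor kinase, by 5.51 ± 0.34. XTH18, which cuts and rejoins xyloglucan in the wall, rose by 5.09 ± 0.35, and Hop3, a co-chaperone of heat shock proteins, by 5.04 ± 0.39. AR781 rose by 4.81 ± 0.18 and UGT76E12 by 4.80 ± 0.47.

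The largest falls among named genes with separate arrays were far smaller, and the 12 named included genes of wall loosening, calmodulin binding, chlorophyll synthesis and sucrose synthesis. XTH32, another xyloglucan enzyme, read 937 and 883 on flu arrays, 605 and 918 on flu over-tAPX, 2819 and 2810.0 on WT, and 2999.6 and 3153 on over-tAPX. No mutant array reached any array with functional FLU, and the change was -1.82 ± 0.15 (SE; limma adjusted p = 3.30e-06). EXPA8, an expansin that loosens walls, read 365 and 418 on flu arrays, 277 and 352 on flu over-tAPX, 1207 and 1338 on WT, and 1277 and 1135 on over-tAPX, a change of -1.78 ± 0.14. EXLA2 and EXPB1 of the same superfamily fell by 1.70 ± 0.36 and 1.51 ± 0.23 on the log2 scale. PORB, the light-dependent protochlorophyllide reductase, read 1689 and 1875 on flu arrays, 2165 and 1485 on flu over-tAPX, 5401 and 5261 on WT, and 4686 and 5018 on over-tAPX. The groups stood far apart, with a change of -1.5 ± 0.13 (SE; limma adjusted p = 5.51e-06).

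The other named falls of this size were between -1.43 and -1.84. IQD19, a calmodulin-binding protein, averaged 40.2 ± 28.3 with the flu mutation and 164 ± 16.2 with functional FLU (SD, n = 4 each), and its mutant arrays ran between 7.53 and 76.2. STOMAGEN, a peptide that promotes stomata, averaged 191 ± 92.1 with the flu mutation and 609 ± 227 with functional FLU (SD, n = 4 each), a change of -1.63 ± 0.33. CCB3, which helps to attach a haem to the cytochrome b6f complex, changed by -1.55 ± 0.35, and ATSPS4F, a sucrose-phosphate synthase, by -1.43 ± 0.13. TBL25, XTH16 and DRT100 completed these, at -1.44 ± 0.13, -1.45 ± 0.31 and -1.62 ± 0.14.

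**Figure D2:**
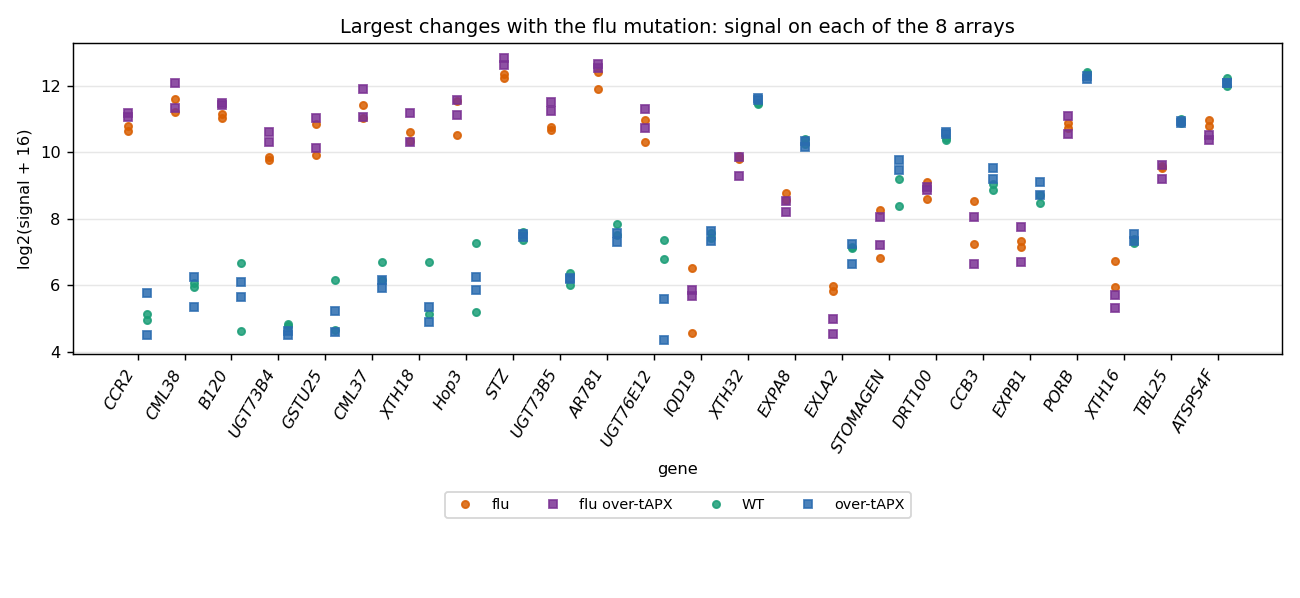
Signal of each of the 8 arrays as log2(signal + 16) for the 12 largest rises and 12 largest falls among named genes with separate arrays; in each gene flu (orange circles) and flu over-tAPX (purple squares) stand left of WT (green circles) and over-tAPX (blue squares). For CCR2 and STZ the mutant arrays stand 5.82 and 5.02 above the others on average, while XTH32 and PORB fall by 1.82 and 1.5.

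Changes under 2-fold were called where the arrays of a side lay close together. ALDH7B4, an aldehyde dehydrogenase linked to stress and lysine breakdown, had the lowest adjusted p among the modest rises of bright named genes. It read 2979 and 3376 on flu arrays, 2981 and 3057 on flu over-tAPX, 1629 and 1926 on WT, and 1561 and 1396 on over-tAPX. The lowest mutant array was above the highest array with functional FLU, and the change was 0.93 ± 0.12 (SE; limma adjusted p = 8.39e-05). IDH-V, a subunit of the NAD-dependent isocitrate dehydrogenase of the citric acid cycle, read 3492 and 3724 on flu arrays, 4105 and 4261 on flu over-tAPX, 2414 and 2632 on WT, and 2531 and 2489.6 on over-tAPX. Its 4 arrays with functional FLU spanned a narrow range and all lay lower, and the change was 0.62 ± 0.11, a rise of 1.54-fold.

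The other modest rises named by the rule, of 935 in all, had several functions. PIA1, a protein phosphatase of the 2C class, averaged 4013 ± 304 with the flu mutation and 2312 ± 200.1 with functional FLU (SD, n = 4 each), and BZIP53, a bZIP transcription factor, averaged 2939 ± 494 with the flu mutation and 1737 ± 163 with functional FLU (SD, n = 4 each). SEC, which attaches N-acetylglucosamine to proteins, rose by 0.76 ± 0.13. The rise of DER1, a derlin of the degradation pathway at the endoplasmic reticulum, was 0.80 ± 0.13, and that of BOB1, a small chaperone, was 0.98 ± 0.16. BIGYIN, a factor of mitochondrial and peroxisomal fission, rose by 0.73 ± 0.12. IAGLU, which joins glucose to auxin, rose by 0.95 ± 0.15, and TOPP8, a type 1 protein phosphatase, by 0.68 ± 0.12. On the poly-A scaling PIA1, DER1, SEC, BIGYIN, IDH-V, BZIP53 and TOPP8 were no longer called, with changes of 0.31 for IDH-V and 0.43 for BZIP53. ALDH7B4, IAGLU and BOB1 still passed.

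Of the 3162 modest falls, the 10 named were chosen among bright probe sets by their adjusted p. HEME2, a uroporphyrinogen decarboxylase of the pathway to chlorophyll and haem, read 1351 and 1368 on flu arrays, 1061 and 1167 on flu over-tAPX, 2322 and 2479 on WT, and 2439 and 2349 on over-tAPX. The sides were well apart, with a change of -0.95 ± 0.11 (SE; limma adjusted p = 5.97e-05). LHCB4.2, an inner antenna protein of photosystem II, read 13162 and 15419.8 on flu arrays, 11573 and 13561 on flu over-tAPX, 22554 and 25302 on WT, and 24070.1 and 23936 on over-tAPX. The brightest mutant array was well below the dimmest array with functional FLU. The change was -0.84 ± 0.11, to 0.558 times the functional-FLU level on the fitted scale. EXGT-A3, a xyloglucan enzyme, read 3639.8 and 3407 on flu arrays, 3912 and 3947 on flu over-tAPX, 5985 and 6063 on WT, and 6445 and 6224 on over-tAPX. The spread within either side was small beside the gap, and the change was -0.73 ± 0.10.

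ACYB-2, a cytochrome b561 that carries electrons from ascorbate across membranes, averaged 2807 ± 185 with the flu mutation and 4544 ± 68.5 with functional FLU (SD, n = 4 each), a change of -0.69 ± 0.10. LYC, which closes the rings of beta-carotene from lycopene, changed by -0.83 ± 0.12, and AOR, a chloroplast enzyme that reduces reactive carbonyls, by -0.78 ± 0.11. CaS, a calcium-binding protein of the thylakoid, averaged 6415 ± 1086 with the flu mutation and 11096 ± 281 with functional FLU (SD, n = 4 each). It fell by 0.80 ± 0.12, with 1 mutant array at 8035 and the other 3 at or under 5993. ACLB-1, a subunit of ATP citrate lyase, GH9C2, an endoglucanase, and SWEET2, a sugar carrier of the vacuole, changed by -0.91 ± 0.13, -0.79 ± 0.11 and -0.90 ± 0.14. These 10 falls were also called on the poly-A scaling.

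**Figure D3:**
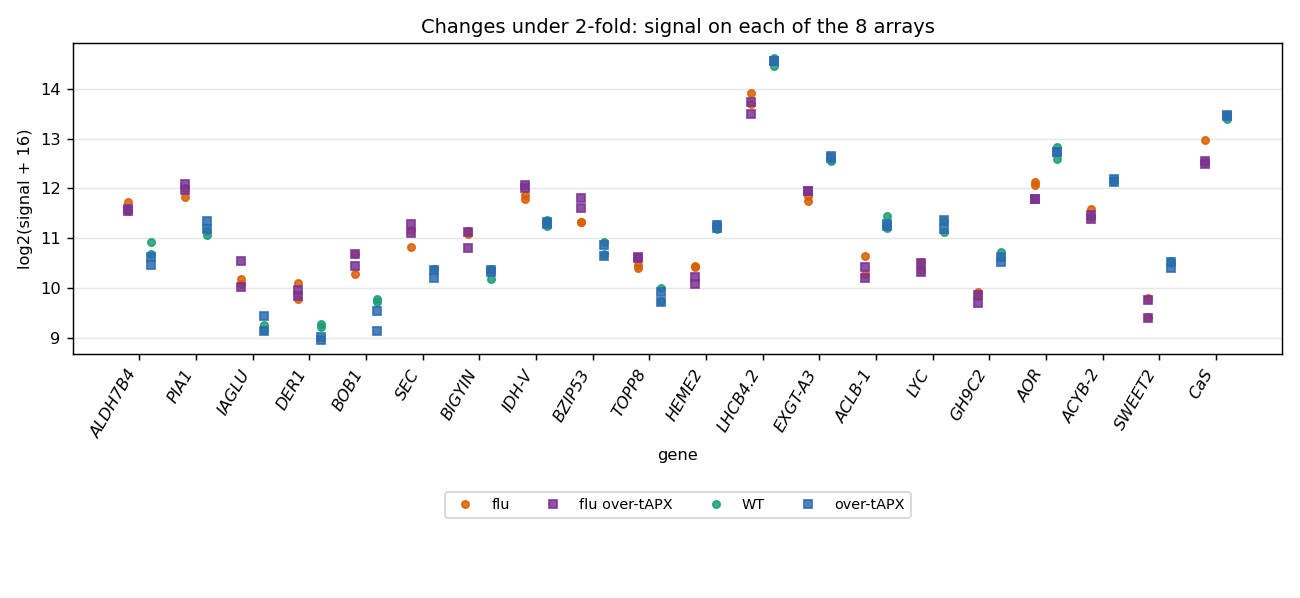
Signal of each array as log2(signal + 16) for 10 rises and 10 falls of under 2-fold, drawn as in the plot of the largest changes, with flu and flu over-tAPX left of WT and over-tAPX. ALDH7B4 shifts up by 0.93 and LHCB4.2 down by 0.84, and in both the 4 mutant arrays are clear of the other 4.

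Gene lists were read on 1 probe set per gene, over 8043 genes of which 15.5% were called higher and 26.5% lower. Only 1141 of these genes had a symbol, so a list holds the part of a family that the annotation names. Nuclear genes for building the thylakoid complexes fell most broadly. Of 18 measured genes for the assembly of photosystems, the cytochrome b6f complex and the plastid NADH dehydrogenase-like complex, 16 fell and none rose, with a median of -1.04. NdhN, a subunit of that dehydrogenase, read 1420.4 and 1092 on flu arrays, 915 and 791 on flu over-tAPX, 2278 and 2388 on WT, and 2897 and 3192 on over-tAPX. All mutant arrays were lower, and those with the transgene were lowest, with a pooled change of -1.36 ± 0.19. CRR42, a factor for the same complex, changed by -1.85 ± 0.56, but its sides overlapped and it lost its call when WT replicate 1, flu over-tAPX replicate 1 or either over-tAPX array was left out. PGRL1B, of cyclic electron flow, was not called, at -0.23 ± 0.17, nor was CRR22, an RNA editing factor, at -0.87 ± 0.44. With 1 array left out, the falls on this list numbered 14 to 17.

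Transcripts for the photosynthetic proteins themselves followed at smaller sizes. Of 9 nuclear genes for photosystems, antenna and ATP synthase, 7 fell and none rose, with a median of -0.55. LHCB4.3 averaged 1757 ± 577 with the flu mutation and 4017 ± 385 with functional FLU (SD, n = 4 each) and PSBY, a small subunit of photosystem II, averaged 8937 ± 1942 with the flu mutation and 16841 ± 2123 with functional FLU (SD, n = 4 each). PSAE-1 of photosystem I, at -0.38 ± 0.16, and the dim ATPC2, at -0.55 ± 0.33, did not pass. Of 5 genes listed for carbon fixation 4 fell, with a median of -0.71. The count and the median include TKL, at -0.81 ± 0.21, which is TIC-LIKE and not a gene of carbon fixation. SBPASE, the sedoheptulose bisphosphatase, averaged 9814 ± 1649 with the flu mutation and 16841 ± 362 with functional FLU (SD, n = 4 each), and PRK, the phosphoribulokinase, averaged 12891 ± 2224 with the flu mutation and 20884 ± 1596 with functional FLU (SD, n = 4 each). The exception was RCA, whose change was -0.10 ± 0.11.

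Tetrapyrrole synthesis, the pathway that FLU holds back, fell at 7 of 8 measured genes, with a median of -0.77. Besides PORB and HEME2, HEME1 fell, averaging 1127 ± 183 with the flu mutation and 2521 ± 146 with functional FLU (SD, n = 4 each). The gene that rose was HEMA2, a glutamyl-tRNA reductase isoform at the start of the pathway. HEMA2 read 1169 and 1329 on flu arrays, 1724 and 1954 on flu over-tAPX, 304 and 159.6 on WT, and 192 and 126 on over-tAPX. Its arrays did not overlap, and the change was 2.92 ± 0.25 (SE; limma adjusted p = 4.36e-06).

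Transcripts encoded in the organelles moved little. Of 68 plastid-encoded genes, 1 rose and 6 fell, with a median of -0.10. Leaving out over-tAPX replicate 1 left 2 of these falls. The ATP synthase genes atpB and atpE, among the brightest, changed by 0.05 ± 0.10 and 0.10 ± 0.11. The falls with the largest size were of rps16, rps15 and ycf3, at -0.70 ± 0.15, -0.61 ± 0.17 and -0.56 ± 0.12, and the rise was of rps14, a ribosomal protein, at 0.88 ± 0.26. Of 11 mitochondria-encoded genes, cox2 and nad4L of the respiratory chain rose, by 0.83 ± 0.20 and 1.06 ± 0.37, and none fell. On the poly-A scaling neither of these nor rps14 was called. Of the mitochondrial rises 1 was left without WT replicate 1, flu over-tAPX replicate 1, flu replicate 2 or over-tAPX replicate 2, and rps14 was not called without either of the last 2 arrays. Arrays primed on poly-A tails read organelle transcripts, which are mostly without them, only in part. Of 8 nuclear genes of plastid gene expression 1 fell, CLPP4, a protease subunit, at -0.49 ± 0.12, and 2 fell without flu over-tAPX replicate 2 or flu replicate 1.

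Redox genes went both ways. Of 26 genes of thioredoxins, glutaredoxins and redox repair, 3 rose and 10 fell, with a median of -0.24. The risers were large: GRX480, a glutaredoxin that binds transcription factors of the TGA family, rose by 4.22 ± 0.24, MSRB9, a methionine sulphoxide reductase, by 3.40 ± 0.13, and ATMDAR2, a monodehydroascorbate reductase, by 2.68 ± 0.14. MSRB9 read 3544 and 4049 on flu arrays, 4309.9 and 3436 on flu over-tAPX, 379.8 and 383 on WT, and 313 and 322 on over-tAPX. VTC4, which makes a precursor of ascorbate, read 879.7 and 737 on flu arrays, 759 and 621 on flu over-tAPX, 2139.8 and 2056 on WT, and 1939 and 1452 on over-tAPX. The sides were apart in both genes, in opposite directions, and VTC4 changed by -1.32 ± 0.14. The plastid thioredoxins ty2 and TRXF2 changed by -1.05 ± 0.20 and -0.90 ± 0.14.

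Among 5 genes of reactive oxygen scavenging none rose and 3 fell, with a median of -0.54. GR, the organellar glutathione reductase, fell by 0.69 ± 0.19, while GR1, the cytosolic one, at 0.19 ± 0.12, and SAPX, the stromal ascorbate peroxidase, at -0.25 ± 0.12, did not pass. Of 3 listed singlet oxygen marker genes, which include STZ, all 3 rose, the smallest change being 1.98, for AT3G28580. Like the other lists, this one was chosen with earlier results of these data known. EX1, a plastid protein needed for singlet oxygen signalling, was not called, at -0.42 ± 0.17.

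Calcium and transcription factor lists differed in their counts. Of 6 calmodulin and calmodulin-like genes 5 rose, with a median of 2.17, among them CML42 at 2.42 ± 0.19. CML30 did not pass, at -0.09 ± 0.27. Of 9 IQD genes, whose products bind calmodulin, 2 rose and 3 fell (5 on the poly-A scaling), with a median of -0.44. IQD22 and IQD23 rose by 1.34 ± 0.16 and 1.01 ± 0.16, while IQD24 changed by -1.36 ± 0.12. WRKY factors, regulators of defence and senescence, rose at 3 of 5: WRKY6 by 4.0 ± 0.26, WRKY53 by 2.11 ± 0.21 and WRKY22 by 1.84 ± 0.32. WRKY20 and WRKY47 did not pass, at -0.35 ± 0.18 and -0.36 ± 0.16, but were called lower on the poly-A scaling and without flu over-tAPX replicate 2.

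Of 15 bZIP and bHLH factors 5 rose and 3 fell, with a median of 0.22 (3 and 4, median -0.06, on the poly-A scaling). The only listed MYB factor, the only NAC factor and 1 of 2 homeodomain and GATA factors fell. Of 2 AP2/ERF factors 1 rose, as did the only listed zinc finger factor, STZ. Lists this small do not describe a family. BZIP60 and BZIP28, factors of the unfolded protein response of the endoplasmic reticulum, both rose. BZIP60 read 6726 and 6254 on flu arrays, 8272 and 8649 on flu over-tAPX, 1083 and 1272 on WT, and 1130.2 and 1061 on over-tAPX. All mutant arrays were above all others, and the change was 2.69 ± 0.13 (SE; limma adjusted p = 5.32e-08). BZIP28 rose by 1.26 ± 0.14. The jasmonate-linked factors MYC3 and MYC4 went opposite ways, at 1.00 ± 0.17 and -0.87 ± 0.28. The fall of MYC4 was not called without flu replicate 2 or either over-tAPX array. Of 13 genes of folding and quality control in that compartment, 3 rose, namely BZIP60, BZIP28 and DER1, and 2 fell. The fallers were ATERDJ2B, a co-chaperone, at -0.49 ± 0.16, and CRT1b, a calreticulin, at -0.48 ± 0.14. Neither was called without WT replicate 1, WT replicate 2, flu over-tAPX replicate 1 or flu replicate 2, and 1 was lost without flu replicate 1 or either over-tAPX array.

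Hormone lists were small. Of 7 genes of abscisic acid and drought 3 rose, COR27, LTI30 and RD2, by 1.76 ± 0.31, 1.61 ± 0.19 and 1.06 ± 0.12, and none fell. COR47, a dehydrin, was level at 0.05 ± 0.14. The auxin-conjugating enzyme GH3.3 rose by 2.22 ± 0.31 and the auxin-response repressor IAA18 by 1.04 ± 0.13, 2 of 4 auxin genes, of which 1 was called lower without WT replicate 1. Among the abscisic acid genes 2 were called lower without flu over-tAPX replicate 1, and 2 were called lower on the poly-A scaling. Among the 3 gibberellin receptors GID1B rose by 2.07 ± 0.18, GID1A fell by 0.45 ± 0.15 and GID1C did not pass, at -0.15 ± 0.30. The fall of GID1A was lost without any 1 of the WT and flu arrays.

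Enzymes that conjugate or oxidise small molecules changed in both directions. Of 34 UDP-glycosyltransferases, 16 rose and 5 fell, with a median of 0.52 (14 and 9, median 0.25, on the poly-A scaling). The largest falls there were of UGT78D1, a flavonol rhamnosyltransferase, and UGT88A1, at -1.31 ± 0.22 and -1.14 ± 0.16. Of 11 glutathione transferases 3 rose and 3 fell, with a median of 0.08 (2 and 3, median -0.20, on the poly-A scaling). Rises also numbered 2 without either flu array or without replicate 2 of WT, flu over-tAPX or over-tAPX. GSTU22 averaged 269 ± 64.2 with the flu mutation and 56.1 ± 24.2 with functional FLU (SD, n = 4 each), whereas GSTU27 averaged 671 ± 58.1 with the flu mutation and 1746 ± 238 with functional FLU (SD, n = 4 each). The bright GSTU20 did not pass, at -0.21 ± 0.26. Of 14 cytochromes P450, 3 rose and 5 fell, between -1.07 for CYP78A9 and 1.82 for CYP71B22. The 5 falls became 3 without either over-tAPX array. Aldehyde dehydrogenases gave 1 rise, ALDH7B4, and 3 falls among 8, the largest fall being that of ALDH3F1, at -1.07 ± 0.14.

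Ubiquitin ligases of the U-box class rose at 5 of 8, with a median of 2.23 and no fall (1 fall on the poly-A scaling). PUB19, which acts in drought responses, averaged 1725 ± 329 with the flu mutation and 139 ± 51.6 with functional FLU (SD, n = 4 each), and PUB23 and PUB24, which dampen immune responses, averaged 1064 ± 355 with the flu mutation and 97.0 ± 24.5 with functional FLU (SD, n = 4 each) and 1594 ± 375 with the flu mutation and 200.3 ± 38.5 with functional FLU (SD, n = 4 each). PUB49 and PUB26 did not pass. By comparison, ubiquitin conjugases and ubiquitin proteases were mostly level: of 23 genes 2 rose and 1 fell, with a median of 0.00, and the bright UBC28 changed by 0.02 ± 0.11. The 2 rises, of UBP19 and UBP20, were not called on the poly-A scaling, and 1 of them was lost without flu replicate 1 or over-tAPX replicate 1. Falls numbered 3 without flu over-tAPX replicate 2, and 0 without flu replicate 1 or either over-tAPX array (adjusted p in limma).

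Membrane traffic gave 8 rises and 3 falls among 27 genes, with a median of 0.03 (6 and 6, median -0.26, on the poly-A scaling). The tetraspanins, membrane proteins found on vesicles, went both ways. TET8 read 9221 and 11083 on flu arrays, 11799 and 10991 on flu over-tAPX, 2091 and 1879.7 on WT, and 1976 and 1864 on over-tAPX. Its mutant arrays were all several times as bright, and the change was 2.45 ± 0.11 (SE; limma adjusted p = 3.89e-08). TET9 rose by 2.72 ± 0.32, while TET7, TET3 and TET10 changed by -0.73 ± 0.14, -0.39 ± 0.12 and -0.37 ± 0.14. Of the 3 falls 1 was left without either WT array or without over-tAPX replicate 1. SEC1B, a regulator of membrane fusion, rose by 1.87 ± 0.18, and the SNARE gene SEC22 was level at 0.06 ± 0.14. Of 10 autophagy genes only ATG8H was called, at 1.65 ± 0.25. Without flu over-tAPX replicate 2 the count of rises was 5, and without flu replicate 1 there was also 1 fall.

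The list of respiration genes gave 4 rises and 3 falls among 17. NDB2, an external NADH dehydrogenase of mitochondria, read 6496 and 6419 on flu arrays, 6478 and 7147 on flu over-tAPX, 1191 and 1143 on WT, and 1074 and 909.9 on over-tAPX. The gap was wide and even, with a change of 2.61 ± 0.12 (SE; limma adjusted p = 3.22e-08). CYTC-2, cytochrome c, was called at 0.84 ± 0.30. NDB1 fell by 0.51 ± 0.15. The largest fall counted, of 1.3 ± 0.35, was that of CYTC6A, whose product is a thylakoid lumen protein and not a mitochondrial one. The 4 rises became 2 when replicate 1 of any line was left out, 6 without flu over-tAPX replicate 2, and 1 on the poly-A scaling. The 3 falls became 1 without WT replicate 2, flu over-tAPX replicate 1 or over-tAPX replicate 2.

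Falls outnumbered rises on most wall lists, as they did over all genes tested (26.5% lower against 15.5% higher). Of 19 expansins, xyloglucan and pectin enzymes, 3 rose and 11 fell, with a median of -0.51. With any 1 array left out, 9 or 10 fell. XTH19 and EXPA16 joined XTH18 on the higher side, at 1.29 ± 0.18 and 1.22 ± 0.25, and EXPA4 was level at 0.01 ± 0.17. Of 14 TBL wall acetyltransferases 1 rose, TBL37 at 1.48 ± 0.18, and 5 fell. Of 6 glycosyl hydrolases 4 fell, including GH9B7, averaging 704 ± 49.7 with the flu mutation and 1545 ± 123 with functional FLU (SD, n = 4 each), and none rose. The 8 genes for cellulose synthase-like and wall proteins gave 2 rises and 2 falls, with a median of 0.18 (2 and 3, median -0.11, on the poly-A scaling). IRX15-L of xylan synthesis rose by 3.49 ± 0.34, CSLD2 by 0.91 ± 0.19, and CSLA03 and CSLC5 changed by -1.29 ± 0.19 and -1.24 ± 0.16.

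Serine carboxypeptidases and subtilases, secreted or vacuolar proteases, fell at 14 of 20 genes, with a median of -0.61, and 2 rose. With 1 array left out, 11 to 14 fell. The risers were both subtilases. SBT3.5 averaged 2369 ± 366 with the flu mutation and 354 ± 40.1 with functional FLU (SD, n = 4 each), and SBT3.3, linked to immune priming, averaged 635 ± 222 with the flu mutation and 181 ± 46.8 with functional FLU (SD, n = 4 each). On the lower side scpl26 changed by -1.14 ± 0.13 and SBT1.3 by -1.03 ± 0.18. Of 14 genes of starch and sugars 2 rose and 6 fell, with a median of -0.35. The sugar carriers of the SWEET family were divided: SWEET4 rose by 1.37 ± 0.14, while SWEET1 changed by -1.24 ± 0.16. AMY1, an amylase, rose by 0.95 ± 0.24 and SBE2.2, a starch branching enzyme, fell by 0.75 ± 0.15.

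Cytoskeleton genes gave 3 rises and 8 falls among 25 (2 and 13 on the poly-A scaling). Over all genes tested 15.5% were higher and 26.5% lower, so this list stood near the general shares. ACT11, an actin, changed by -1.15 ± 0.17, and the bright TUA6, a tubulin, was not called at -0.28 ± 0.12. Without over-tAPX replicate 2 the 8 falls became 5. Other lists held few calls. Of 28 genes for RNA polymerase, splicing and mediator subunits 2 fell, MED6 and THO1, at -0.61 ± 0.21 and -0.59 ± 0.16, and none rose. Of the 2 falls 1 was left without WT replicate 1, either flu array or either over-tAPX array. Falls numbered 3 without flu over-tAPX replicate 1 or replicate 2, and 6 on the poly-A scaling. Of 8 MADS-box factors and 3 vacuolar ATPase genes, 0 were called in limma and 0 had an unadjusted p under 0.05. AGL16 and VHA-A3 changed by 0.02 ± 0.12 and -0.23 ± 0.15. Without WT replicate 2 or flu replicate 1, 1 MADS-box gene was called.

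**Figure D4:**
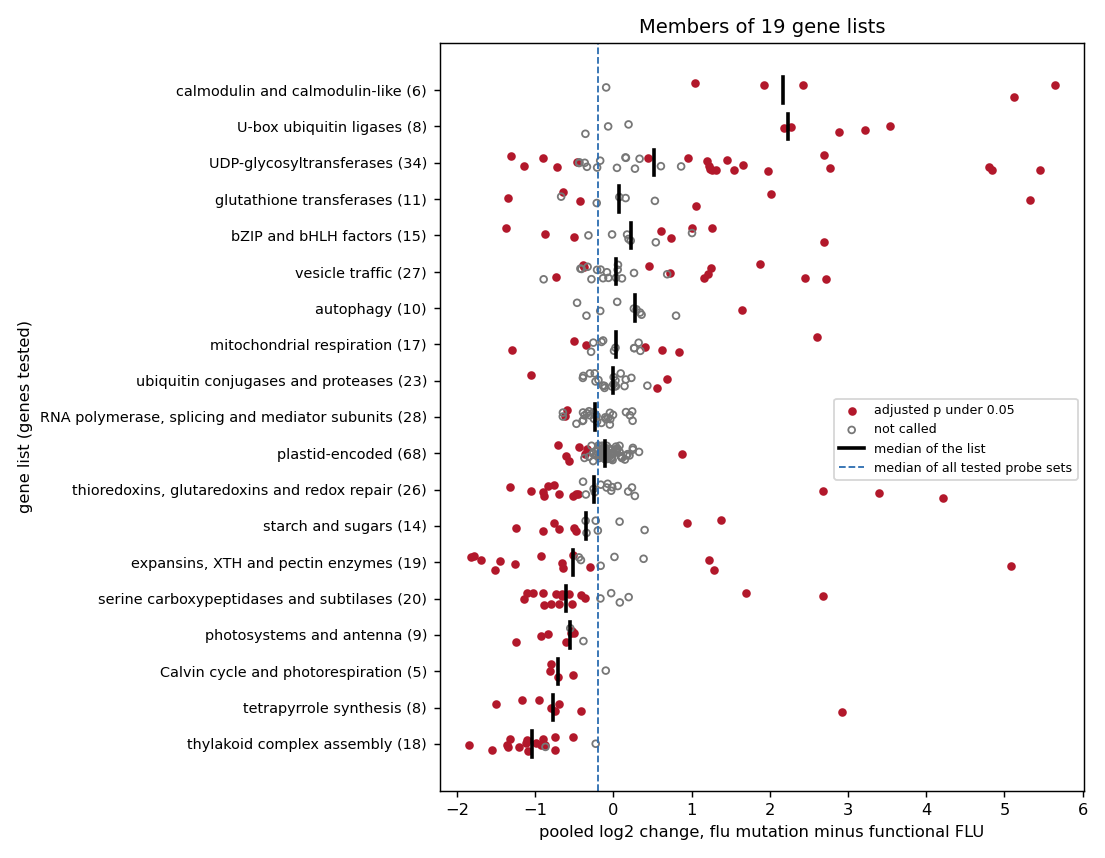
Pooled log2 change (horizontal axis, flu mutation minus functional FLU) of each measured gene in 19 lists; filled red points were called, open points were not, black bars are list medians and the dashed line is the median of all tested probe sets, -0.20. The thylakoid assembly genes centre on -1.04 with 16 of 18 called lower, and the U-box ligases on 2.23 with 5 of 8 called higher.

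The pooled effect averages a pair of responses that share no array: flu against WT, and flu over-tAPX against over-tAPX. Over the 14947 probe sets their changes had r = 0.857, a description across probe sets. A difference between them counts as residual spread in the pooled model, so the calls favour probe sets with like changes in both. Alone, the WT background gave 3570 calls (23.9%) and the over-tAPX background 5014 (33.5%). Of the pooled calls, 2968 were called in both backgrounds, 1672 in the over-tAPX background alone and 506 in the WT background alone. The test of the difference itself, the interaction, called 0 probe sets in limma, with 1031 (6.9%) at an unadjusted p under 0.05. Without flu over-tAPX replicate 1 it called 185, and on the poly-A scaling 1757.

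Pooling added 1464 calls (22.1% of all) that neither background gave alone. Of these 1315 (89.8%) were under 2-fold, and 329 were higher and 1135 lower. LPA1, which helps to assemble photosystem II, had the lowest adjusted p of the named ones and read 652 and 734 on flu arrays, 566 and 705 on flu over-tAPX, 1028 and 979 on WT, and 959.6 and 841 on over-tAPX. The arrays did not overlap by side. Its change was -0.53 ± 0.18 over WT (adjusted p = 0.063 in limma) and -0.50 ± 0.18 over over-tAPX (adjusted p = 0.062 in limma), and pooled -0.51 ± 0.13 (SE; limma adjusted p = 0.0072).

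SWEET11 read 3131 and 4208 on flu arrays, 4288 and 3887 on flu over-tAPX, 5135 and 5285 on WT, and 5065 and 5988 on over-tAPX. The highest mutant array was below the lowest array with functional FLU, and the pooled change was -0.47 ± 0.12 (SE; limma adjusted p = 0.0096). PSD, the exportin of transfer RNA known as PAUSED, averaged 128 ± 34.6 with the flu mutation and 235 ± 25.5 with functional FLU (SD, n = 4 each), a change of -0.83 ± 0.21. The carboxypeptidase gene scpl42 and the endoglucanase gene GH9B5 changed by -0.56 ± 0.14 and -1.28 ± 0.32, the last from dim signals that averaged 39.2 ± 15.8 with the flu mutation and 116 ± 23.5 with functional FLU (SD, n = 4 each).

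For the higher calls, the background with the larger changes depended on the scaling. As deposited, sizes were larger over over-tAPX for 78.3% of the higher calls and 62.7% of the lower ones. The median of the higher calls was 1.42 over over-tAPX and 1.15 over WT, and that of the lower calls -0.77 over over-tAPX and -0.66 over WT. On the poly-A scaling only 11.5% of the same higher calls were larger over over-tAPX, with medians of 0.75 over over-tAPX and 1.24 over WT. Of the lower calls 98.6% were larger there, with medians of -1.46 over over-tAPX and -0.57 over WT. Named genes with the lowest interaction p were UGT76E12 and ty2. UGT76E12 read 1981 and 1256 on flu arrays, 2529 and 1676 on flu over-tAPX, 149 and 95.4 on WT, and 32.1 and 4.40 on over-tAPX. Its change was 6.05 ± 0.41 over over-tAPX, where the over-tAPX arrays were dimmest, and 3.56 ± 0.41 over WT. The plastid thioredoxin gene ty2 changed by -1.59 ± 0.17 and -0.51 ± 0.17 in the same order. Both had an interaction adjusted p of 0.72 in limma, so the difference between backgrounds did not pass. On the poly-A scaling ty2 passed, at -2.30 ± 0.22 over over-tAPX and -0.42 ± 0.22 over WT (interaction adjusted p = 0.0216 in limma), and UGT76E12 did not (adjusted p = 0.0515 in limma). Among 4 plant defensin genes 0 were called in limma, with 1 at an unadjusted p under 0.05, and 2 were called without WT replicate 2 or flu replicate 1, and 2 lower on the poly-A scaling. Their median was -1.53 over over-tAPX and 0.28 over WT, and LCR68, the brightest, had a pooled change of -1.05 ± 0.43 (SE; limma adjusted p = 0.068).

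**Figure D5:**
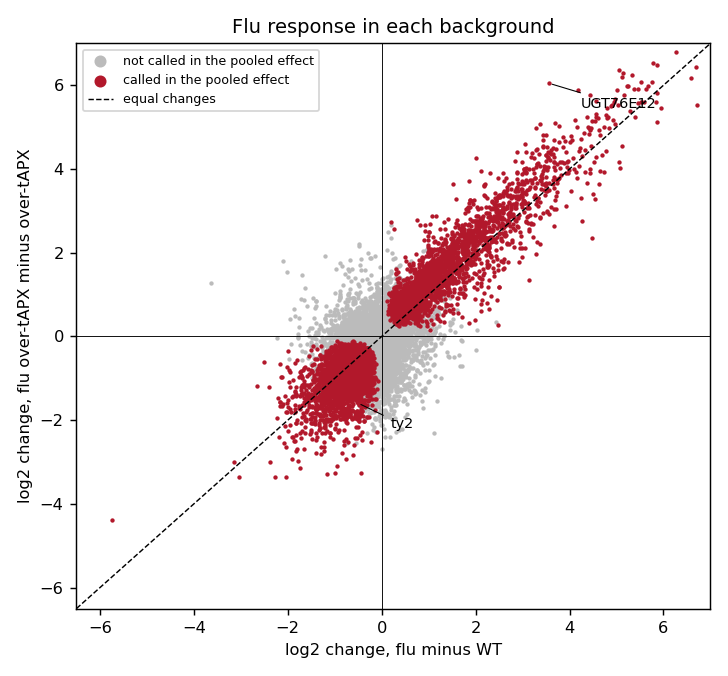
Log2 change of flu over-tAPX minus over-tAPX (vertical axis) against that of flu minus WT (horizontal axis) for 14947 probe sets; red points were called in the pooled effect and the dashed line marks equal changes. On the deposited scaling UGT76E12 and ty2 stand off the line at 6.05 against 3.56 and -1.59 against -0.51.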

How the data were processed

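RNA of each pool was read on an Affymetrix ATH1 array, and each array has 1 signal for each of 22810 probe sets. The deposited intensity values are linear MAS5 signals, as the submitters' processing notes name them, with no version of MAS5 stated there. This algorithm combines the oligonucleotides of a probe set and scales an array by 1 factor. The median signal lay between 153 and 166 on the 8 arrays. The number of arrays limits the precision.

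From these, 64 control probe sets were left out and log2(signal + 16) was taken with no further normalization. The 14947 probe sets tested exceeded their array's 40th percentile on 2 or more arrays. The model in limma 3.58.1 (R 4.3.3) had the FLU state and the transgene as terms, with variances moderated along a trend on brightness (5 degrees of freedom between arrays; prior ones, 5.86 at the median). All p-values were two-sided. The responses within a background and the interaction came from a model of the 4 line means. The fit was also run on simulated data with independent noise and far fewer changed probe sets than were called here. That run does not bear on the scaling of the arrays or on the interaction.

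Gene names came from the platform annotation: 13513 probe sets had 1 gene, 503 several and 8794 none there. NCBI gene identifiers tied 13436 to TAIR10.1 symbols. The brightest probe set stood for a gene, and probe sets with several genes named none. Of 93 genes with several tested probe sets, 18 had probe sets that differed in call, 0 of them in opposite directions.

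Genes were named by rule. Large changes are the 12 highest and 12 lowest called with a symbol, separate arrays and a mean signal of at least 100 on the brighter side. Modest ones are the 10 called each way with the lowest adjusted p, under 2-fold and with a mean of at least 500 on both sides. Also named were the 5 lowest adjusted p among calls that neither background gave, the 2 lowest interaction p, TAPX, up to 3 called members a direction of each list with the largest change, and up to 2 bright uncalled ones. EX1 and the cell type markers were named as markers. Members and lists were chosen with earlier results of these data known, and some lists were added after the annotation was seen. Alternatives covered the model, the replicate block, the pseudocount, the filter, the variance prior, the normalization and each array left out. Promoter sequences were not analysed here.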

Additional observations from a re-analysis of the deposited data

Results flagged for a closer look

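In 10 of the 324 groups of 4 arrays, over 162 genes named here, 1 array stood apart from the other 3 by Dixon's test. Chance flags about 1 in 20 groups. On the flu-mutant side, XTH32 was low on flu over-tAPX replicate 1 (605 signal units), CML30 was low on flu over-tAPX replicate 2 (93.4) and COR47 was low on flu replicate 1 (3831). On that side CaS was high on flu replicate 1 (8035), IQD23 was high on flu over-tAPX replicate 1 (851) and NDB2 was high on flu over-tAPX replicate 2 (7147). With functional FLU, SEC was low on over-tAPX replicate 2 (1161), IQD22 was low on WT replicate 1 (190.1), GRX480 was low on WT replicate 2 (66.8) and ycf3 was high on over-tAPX replicate 1 (2280).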

How the results depend on the processing

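The direction of every named call held under the 19 alternatives wherever its probe set was tested. Likewise 140 of 178 named calls passed in every alternative that tested them. A filter at the 60th percentile tested only 146 of the 178, so not all of the 140 were tested under every alternative. The counts of called, lower and modestly changed probe sets stayed within 1.5 times. Called probe sets ranged between 5171 and 6927 with 1 array left out, higher ones between 2205 and 2523, lower ones between 2966 and 4404, and those under 2-fold between 2843 and 4481. The poly-A scaling moved the higher calls to 1677 and the interaction calls to 1757, against 2561 and 0 as deposited. The interaction called between 0 and 185 with 1 array left out, the last without flu over-tAPX replicate 1. The gap between the median of the higher calls over over-tAPX and that over WT was 0.27 as deposited and -0.49 on the poly-A scaling, and for the lower calls -0.11 and -0.89. The cause was not tested. Without the filter on dim probe sets the median change was -0.09. Centring on the array median, and the scalings of this gap, were added after the data were seen. Replicate numbers were shared between lines, but the deviations of same-numbered arrays correlated between -0.08 and 0.35 and not every pair exceeded 0.1, so the numbers were not taken to pair the arrays. With the replicate block 6794 probe sets were called. The signal over background limits dim genes, whose SE was larger. No promoter description was run.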
